A study of Mus musculus with 8 samples.

Results

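*Foxa1*, *Foxa2*, *Ttc6*, *Corin*, *Ferd3l*, *Msx1* and *Spon1* are 7 genes of the ventral midbrain floor plate, and their transcript levels were followed from sorted midbrain dopaminergic neurons back to the tissue in which such neurons arise. The 7 genes were chosen by name out of 19938 genes with a single-symbol probe set on the array, and each was measured by 1 probe set. They had been picked with their levels on these arrays already known. The differences between tissue and neurons and between the 2 tissues are therefore given for them as a description without a p-value. Whether the fit over all probe sets called a gene in these contrasts is stated in the same sense, as a description and not as a test of the chosen genes. Only the difference between the 2 neuronal stages is given as a test for them. The choice was not made on that difference, although the levels behind it were known as well.

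The floor plate is the ventral midline of the neural tube. It secretes SHH, netrin and other guidance cues, and in the midbrain, unlike in the hindbrain and spinal cord, it is also neurogenic and gives rise to the midbrain dopaminergic (mdDA) neurons. The forkhead transcription factors FOXA1 and FOXA2 act in these progenitors and remain in the mdDA neurons, whereas other floor plate genes are best known from the ventricular zone.

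Mouse RNA of 4 groups was hybridised to Affymetrix Mouse Gene arrays, and every group had 2 arrays. The E14.5 neurons and the E13.5 neurons were GFP+ cells sorted from *Pitx3*GFP/+ embryos, in which GFP stands in one *Pitx3* allele, on a mixed C57BL/6 x 129/Ola background. The mdDA domain was the b-GAL+/PITX3+ ventral midbrain, and the lateral domain was a b-GAL-/PITX3- region at the boundary of alar and basal plate. Both were laser-microdissected from immunostained sections of E12.5 *BAT-gal* embryos (B6D2F1, mixed), whose b-GAL reporter is driven by LEF1/TCF binding sites in front of a minimal promoter, and tissue of 5 embryos was pooled. The labels call the 2 arrays of each group technical replicates, so that every p-value below measures the spread between arrays and not between embryos. Neurons and tissue also differed in stage, strain and isolation, and these cannot be told apart. Values are RMA levels on the log2 scale, on which a difference of 1 is a doubling. The files used here give no background level or detection call, so a fold against a level below the array median may be too small, which also holds for *Msx1* and *Ferd3l* against the lateral domain.

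Of 7 listed markers of the mdDA lineage, 7 were called higher in sorted neurons than in the lateral domain, against 11.4% of all probe sets. In the mdDA domain 6 of the 7 were called higher than in the lateral domain, against 1.52% of all probe sets. The gene not called was *Pitx3*, the gene whose protein marked the dissected domain and whose allele carries the GFP, which averaged 7.82 in neurons and 7.39 in the mdDA domain, against 6.72 in the lateral domain (mdDA minus lateral 0.67, limma adjusted p = 0.228). *Th*, which encodes the enzyme that makes L-DOPA, averaged 10.56 in sorted neurons and 9.20 in the mdDA domain, against 5.34 in the lateral domain. The median level of all probe sets was 4.39 on each neuronal array, 4.57 to 4.60 on the arrays of the mdDA domain, and 4.60 on those of the lateral domain. The arrays of a group differed by a median of 0.165 to 0.201 over all probe sets. Of the marker lists, the erythroid genes separated sorted cells and tissue most: the 3 measured of 5 listed averaged 4.33 to 4.52 on the neuronal arrays, against 8.87 to 8.93 in the mdDA domain and 8.83 to 8.90 on the lateral arrays.

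Sequence before the transcription start was available in RefSeq (GRCm38.p6) for 6 of the 7 genes, in 8 windows of 250 bases; *Spon1* was not matched. The windows of 4 genes are shown because their transcripts cover the range of patterns described next: *Foxa1* (chr12:57546112-57546361, minus strand) and *Foxa2* (its start farthest upstream, chr2:148046970-148047219, minus strand) stayed high in neurons, *Ttc6* (chr12:57563865-57564114, plus strand) stayed at an intermediate level, and *Corin* (chr5:72504541-72504790, minus strand) was near the lateral level. Capitals mark a forkhead motif, and each window runs 5′ to 3′ up to the base before the start.
Foxa1: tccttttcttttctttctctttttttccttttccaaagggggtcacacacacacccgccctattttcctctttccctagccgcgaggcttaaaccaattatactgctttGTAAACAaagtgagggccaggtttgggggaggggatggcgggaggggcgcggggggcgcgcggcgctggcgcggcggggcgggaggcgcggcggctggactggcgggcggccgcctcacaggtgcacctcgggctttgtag
Foxa2: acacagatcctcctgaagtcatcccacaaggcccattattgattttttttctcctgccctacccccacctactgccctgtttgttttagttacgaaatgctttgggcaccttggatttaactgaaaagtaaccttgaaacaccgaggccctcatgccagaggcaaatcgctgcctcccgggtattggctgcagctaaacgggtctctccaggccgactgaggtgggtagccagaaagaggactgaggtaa
Ttc6: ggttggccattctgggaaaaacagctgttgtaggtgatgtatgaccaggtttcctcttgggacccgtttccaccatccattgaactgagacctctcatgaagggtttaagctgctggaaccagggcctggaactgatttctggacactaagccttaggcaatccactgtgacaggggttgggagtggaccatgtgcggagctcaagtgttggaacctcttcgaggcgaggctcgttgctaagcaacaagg
Corin: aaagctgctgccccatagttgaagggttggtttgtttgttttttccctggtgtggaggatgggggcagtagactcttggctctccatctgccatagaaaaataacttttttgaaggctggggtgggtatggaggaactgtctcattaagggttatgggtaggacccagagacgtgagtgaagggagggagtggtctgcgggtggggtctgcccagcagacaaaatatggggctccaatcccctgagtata
For comparison, 3 motifs were searched on both strands: TGTTTAC for forkhead factors, GGGTGGT as the core of a GLI site, and CTTTGAA for LEF1/TCF factors. Each was searched as 1 exact string. Among the 8 windows there was 1 match to these strings, the forkhead motif of *Foxa1*. It lies on the strand opposite to the gene and begins 141 bases before the start. The LEF1/TCF sequence given in the paper also allows T in place of either final A, and the *Foxa1* window holds such a form, CTTTGTA. Looser forms of the 3 motifs were not counted in any window. Of 32851 mouse promoter windows of the same length, 3.17% held the forkhead motif, 3.92% the GLI core and 4.46% the LEF1/TCF motif. A match of letters is not evidence of binding, and a window without one says nothing about more distant sites.

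Of the 7 genes, the forkhead genes *Foxa1* and *Foxa2* stood farthest above the lateral domain in sorted neurons, at levels close to or above those of the mdDA domain. *Foxa1* was at 9.49 and 9.32 on the E14.5 neuron arrays, 9.75 and 9.50 on the E13.5 neuron arrays and 8.98 and 8.64 in the mdDA domain, against 5.47 and 5.05 in the lateral domain. All 4 neuronal arrays lay above both mdDA arrays, and these lay far above both lateral arrays. The mdDA domain was 3.55 (SE 0.15) above the lateral domain, which is 11.7-fold, and the sorted neurons were 4.26 (SE 0.17) above it, which is 19.1-fold. Between the sorted neurons and the mdDA domain the difference of *Foxa1* was 0.70 (SE 0.17), or 1.63-fold. That last difference was fragile: it became 0.51 when the arrays were quantile-normalised again, 0.64 without the first E13.5 array, 0.87 without the first mdDA array and 0.54 without the second, and in each case the call was lost.

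*Foxa2* was at 8.27 and 8.28 in E14.5 neurons, 8.57 and 8.54 in E13.5 neurons and 8.53 and 8.40 in the mdDA domain, against 4.99 and 5.06 in the lateral domain. The neuronal and mdDA arrays overlapped, and the lateral arrays stood apart from both. The mdDA domain was 3.44 (SE 0.15) above the lateral domain, a 10.9-fold difference, and the neurons were 3.39 (SE 0.10) above it, a 10.5-fold difference. The neurons and the mdDA domain differed by -0.05 (SE 0.10) for *Foxa2*, and this value turned to 0.15 when the median of each array was subtracted, so it has no settled direction.

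*Ttc6*, a tetratricopeptide repeat gene, is the neighbour of *Foxa1* on chromosome 12, and the annotated spans of both genes overlap in RefSeq. Transcripts from the starts of the windows shown above run away from each other, so the overlap involves annotated sequence outside them. Where the probes lie was not given, so whether they fall in the shared stretch is unknown. *Ttc6* was at 6.04 and 6.44 in E14.5 neurons, 6.32 and 6.46 in E13.5 neurons and 7.26 and 7.28 in the mdDA domain, against 3.87 and 3.44 in the lateral domain. Every neuronal array was below both mdDA arrays and above both lateral arrays. *Ttc6* thus stood between the 2 tissues in sorted neurons: it was 3.61 (SE 0.18) higher in the mdDA than in the lateral domain (12.2-fold), 2.66 (SE 0.17) higher in neurons than in the lateral domain (6.33-fold), and 0.95 (SE 0.17) lower in neurons than in the mdDA domain (1.93-fold lower). Both lateral values of *Ttc6* were below the array median of 4.60, so the folds against the lateral domain may be too small. The adjacent genes therefore lay on opposite sides of the mdDA domain in neurons, *Foxa1* above and *Ttc6* below. The call of *Ttc6* between neurons and the mdDA domain was lost without either mdDA array, at differences of -0.96 and -0.94.

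**Figure D1:**
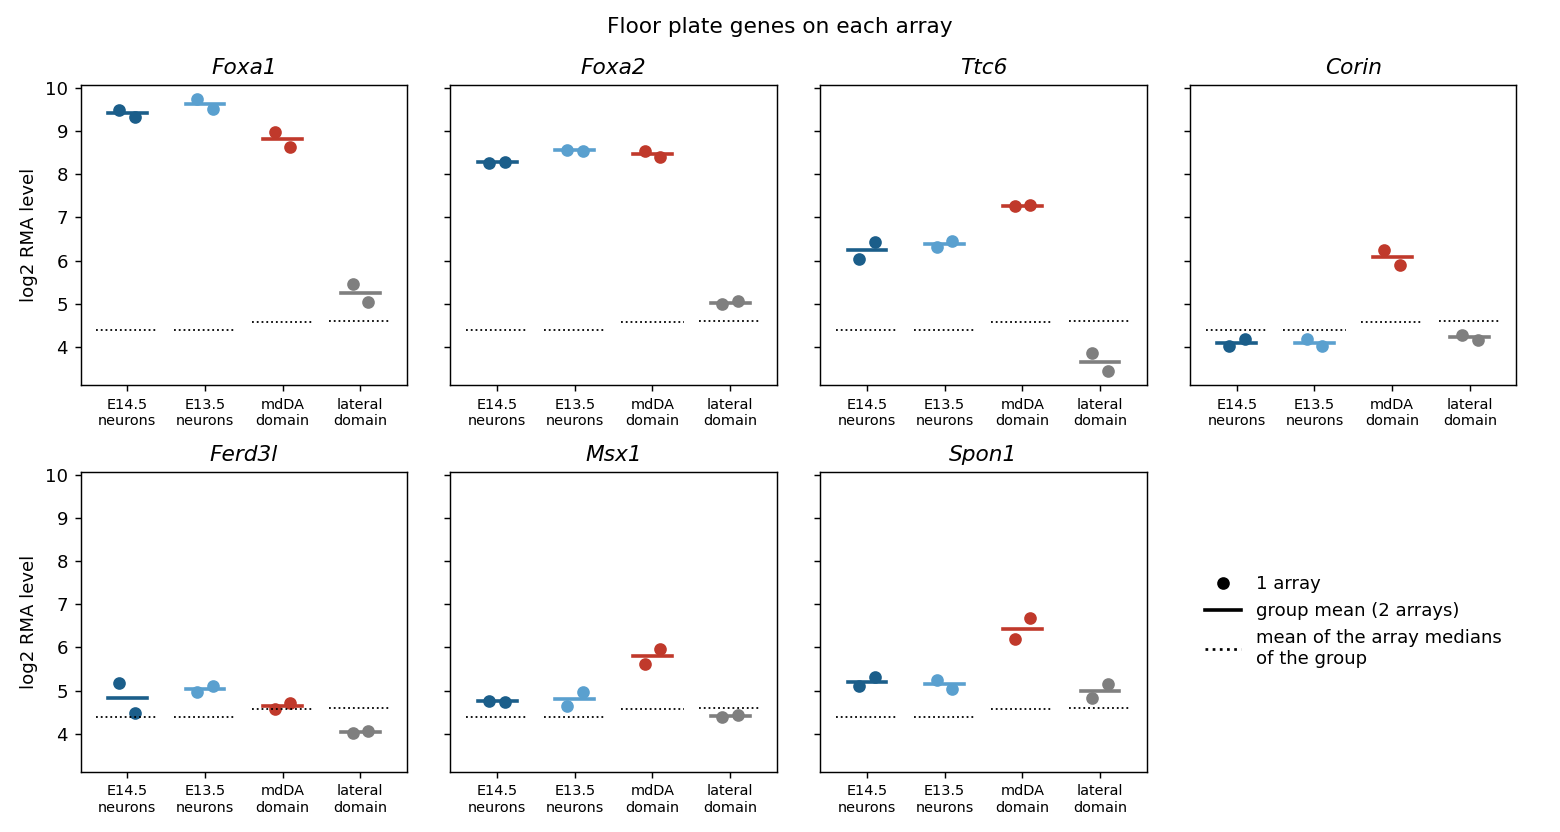
Log2 RMA level of the 7 floor plate genes (vertical axis) on each of the 8 arrays, in E14.5 neurons, E13.5 neurons, the mdDA domain and the lateral domain. Points are arrays, solid lines group means of 2 arrays and dotted lines the mean array median of the group; *Foxa1* and *Foxa2* stay above 8 in neurons, while *Corin* lies between 4.02 and 4.18 there, below the dotted line.

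*Corin*, *Msx1* and *Spon1* had their highest levels in the mdDA domain. *Corin* encodes a transmembrane serine protease used as a surface marker of the floor plate. *Corin* was at 4.03 and 4.18 in E14.5 neurons, 4.18 and 4.02 in E13.5 neurons and 6.24 and 5.91 in the mdDA domain, against 4.28 and 4.17 in the lateral domain. Only the 2 mdDA arrays were raised, and the neuronal arrays overlapped with the lateral arrays and lay below their own array medians. *Corin* was 1.85 (SE 0.16) higher in the mdDA than in the lateral domain, which is 3.6-fold, and 1.97 (SE 0.13) lower in neurons than in the mdDA domain, which is 3.93-fold lower. The neuronal and lateral values of *Corin* were all below their array medians, so both folds may be too small. The difference of neurons from the lateral domain was -0.12 for *Corin* and turned to 0.09 both with repeated quantile normalisation and with array medians subtracted.

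MSX1 is a homeodomain transcription factor of the mdDA progenitors that acts downstream of LMX1A. *Msx1* was at 4.76 and 4.75 in E14.5 neurons, 4.65 and 4.96 in E13.5 neurons and 5.62 and 5.97 in the mdDA domain, against 4.38 and 4.44 in the lateral domain. The mdDA arrays were above all others, and the neuronal arrays were slightly above the lateral ones without overlap. *Msx1* was 1.39 (SE 0.16) higher in the mdDA than in the lateral domain (2.61-fold) and 1.02 (SE 0.15) lower in neurons than in the mdDA domain (2.02-fold lower). Neurons and the lateral domain differed by 0.37 (SE 0.15) for *Msx1*, which was not called as deposited and was called at 0.56 after quantile normalisation and at 0.58 after subtraction of array medians.

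*Spon1* encodes F-spondin, a secreted matrix protein of the floor plate that acts on growing axons. *Spon1* was at 5.11 and 5.31 in E14.5 neurons, 5.25 and 5.04 in E13.5 neurons and 6.20 and 6.67 in the mdDA domain, against 4.83 and 5.15 in the lateral domain. The mdDA arrays were again above all others, whereas neuronal and lateral arrays overlapped. *Spon1* was 1.44 (SE 0.15) higher in the mdDA than in the lateral domain (2.72-fold) and 1.26 (SE 0.18) lower in neurons than in the mdDA domain (2.39-fold lower). It was 0.19 (SE 0.18) above the lateral domain in neurons.

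*Ferd3l*, also known as *Nato3*, encodes a basic helix-loop-helix transcription factor of the floor plate, and its levels lay near the array medians in all groups. *Ferd3l* was at 5.18 and 4.48 in E14.5 neurons, 4.98 and 5.12 in E13.5 neurons and 4.58 and 4.72 in the mdDA domain, against 4.02 and 4.07 in the lateral domain. The lateral arrays were lowest, and the E14.5 arrays spanned both mdDA arrays. *Ferd3l* was 0.61 (SE 0.15) higher in the mdDA than in the lateral domain (1.52-fold) and was not called, except when only probe sets with a single symbol were fitted. It was 0.90 (SE 0.20) higher in neurons than in the lateral domain (1.86-fold), and that call was lost without either lateral array. The neurons and the mdDA domain differed by 0.29 (SE 0.20) for *Ferd3l*, less than the 0.70 between the 2 E14.5 arrays. Without the second E14.5 array, which was the lowest of the 4 neuronal arrays, that difference was 0.47 and was called.

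The order of the groups therefore differed between the genes. For *Foxa1* it ran from neurons over the mdDA domain to the lateral domain. For *Foxa2* and *Ferd3l* neurons and the mdDA domain did not separate, and the lateral domain was lowest. For *Ttc6* and *Msx1* the mdDA domain was highest, then neurons, then the lateral domain, and for *Corin* and *Spon1* the mdDA domain stood alone above neurons and the lateral domain, which overlapped. Expressed as a share of the difference between the 2 tissues, the neurons kept 120% for *Foxa1*, 98.5% for *Foxa2*, 73.7% for *Ttc6*, 26.6% for *Msx1* and 12.9% for *Spon1*. The share of *Ferd3l* was 148%, over a difference of 0.61. No share is given for *Corin*, whose neuronal and lateral levels overlapped and were both below the array median. The share of *Spon1* rests on a difference that was not called, between neuronal and lateral arrays that overlapped. That of *Msx1* also rests on a difference not called as deposited. Neither share shows that neurons kept a level above the lateral domain. The shares of *Ttc6*, *Msx1* and *Ferd3l* are inexact, because their lateral levels were below the array median. In bulk RNA such as this, fewer cells of a type and less RNA per cell cannot be told apart.

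At a false discovery rate below 10% in limma, 6 of the 7 genes were called higher in the mdDA than in the lateral domain and 0 lower, where 1.52% of all 35556 probe sets were called higher and 1.1% lower. All 7 genes had both mdDA arrays above both lateral arrays, as did 20.4% of all probe sets. Between neurons and the mdDA domain 1 gene was called higher, against 8.53% of all probe sets, and 4 genes were called lower, against 9.84%. These 4 genes were also those with every neuronal array below both mdDA arrays, as were 22.9% of all probe sets. Between neurons and the lateral domain 4 genes were called higher, against 11.4% of all probe sets, and the other 3 were not called. Since the genes were chosen on these values, nothing is read from these counts. The median difference of the 7 genes was 1.85 between the mdDA and the lateral domain, -0.95 between neurons and the mdDA domain and 0.90 between neurons and the lateral domain, beside -0.01, -0.08 and -0.09 over all probe sets. With 2 arrays a group the calls between the tissues were fragile: without the first or the second mdDA array 0 of the 7 genes were called, and 5 and 4 probe sets in all were called higher. Without either lateral array 3 of the 7 were called. For 7 of the 8 other floor plate genes in the next paragraphs that were called between the tissues, the call was likewise lost without either mdDA array, *Slit2* being the exception.

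**Figure D2:**
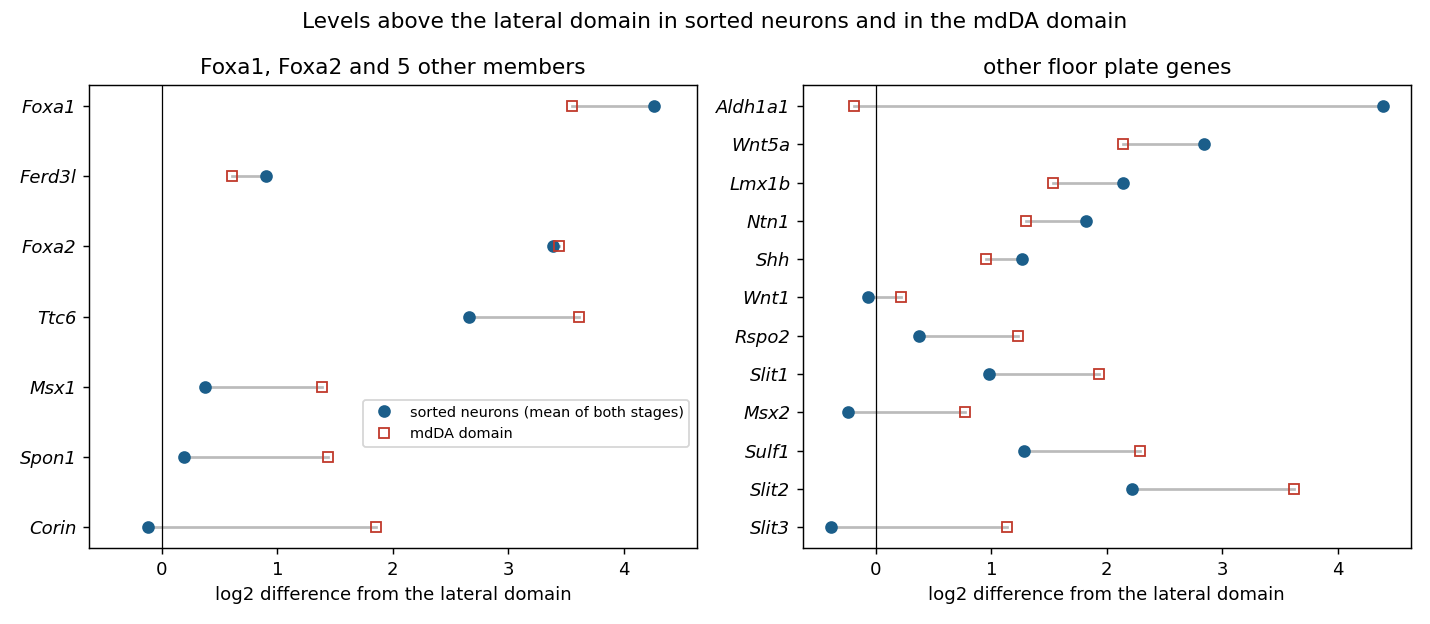
Log2 difference from the lateral domain (horizontal axis) of sorted neurons (filled circles, mean of both stages) and of the mdDA domain (open squares) for the 7 genes on the left and for 12 other floor plate genes on the right, ordered by the difference between neurons and the mdDA domain. *Foxa1* and *Foxa2* lie at 4.26 and 3.39 in neurons, and *Corin* lies at -0.12 there against 1.85 in the mdDA domain.

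The comparison of E14.5 with E13.5 neurons asked whether any of these genes changed with age within sorted neurons. No difference was detected. *Foxa1* differed by -0.22 (95% interval -0.66 to 0.23, limma adjusted p = 0.895) and *Foxa2* by -0.28 (-0.62 to 0.06, limma adjusted p = 0.848). The point estimate of *Foxa2* was the most negative of the 7, and both of its E14.5 arrays were below both E13.5 arrays. *Ttc6* differed by -0.15 (-0.67 to 0.37), *Ferd3l* by -0.23 (-0.99 to 0.54) and *Msx1* by -0.05 (-0.50 to 0.40), while *Corin* differed by 0.01 (-0.39 to 0.40) and *Spon1* by 0.06 (-0.37 to 0.50). The limma adjusted p-values of these 5 genes lay between 0.932 and 0.995. Over all probe sets, 0.0% were called in either direction between the stages, the lowest limma adjusted p was 0.605, and 2156 probe sets but 0 of the 7 genes had an unadjusted p below 0.05. A fit over all 8 arrays called 9 probe sets higher and 11 lower. The intervals leave room for a fall of *Ferd3l* by 0.99 on the log2 scale and for a rise of *Corin* by 0.40, so they do not show that the stages were alike.

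**Figure D3:**
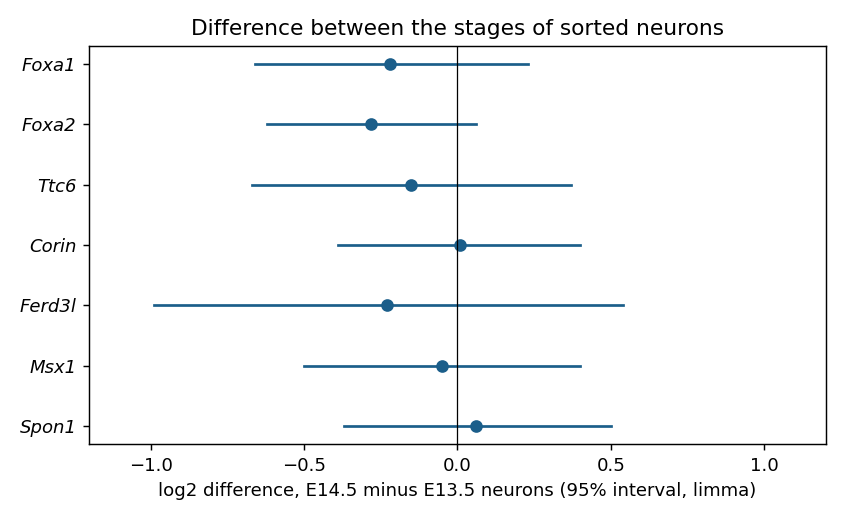
Log2 difference between E14.5 and E13.5 neurons (horizontal axis) for the 7 genes, with points for the limma estimate and bars for its 95% interval. All 7 intervals include 0, the widest for *Ferd3l* (-0.99 to 0.54) and the narrowest for *Foxa2* (-0.62 to 0.06).

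Of the other genes with known roles in the floor plate, 12 are described here, each measured under a single symbol. The list was drawn up with results of these data known, so its counts and p-values describe these arrays and are not independent evidence of a pattern. In the mdDA domain 8 of the 12 were called higher than in the lateral domain, against 1.52% of all probe sets, and 0 lower, against 1.1%, with a median difference of 1.27 beside -0.01 for all probe sets. In sorted neurons 3 rose relative to the mdDA domain, against 8.53% of all probe sets, and 6 fell, against 9.84%, with a median of -0.58 beside -0.08. Relative to the lateral domain 8 rose, against 11.4% of all probe sets, and 1 fell, where 5141 of 35556 probe sets fell.

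Among the secreted ligands, *Ntn1*, which encodes the axon attractant netrin, was at 8.46 and 8.58 in E14.5 neurons, 8.79 and 8.66 in E13.5 neurons and 8.16 and 8.04 in the mdDA domain, against 6.78 and 6.82 in the lateral domain. *Ntn1* was 0.52 higher in neurons than in the mdDA domain (limma adjusted p = 0.0299), a call that was lost after repeated quantile normalisation (0.31) and without either mdDA array (0.58 and 0.46). *Shh*, the ligand that induces the floor plate, averaged 6.78 in neurons and 6.46 in the mdDA domain, against 5.51 in the lateral domain. The difference of *Shh* between neurons and the mdDA domain was 0.32 (limma adjusted p = 0.230), that between mdDA and lateral domain was 0.95 (limma adjusted p = 0.151), and that between neurons and the lateral domain was 1.27 (limma adjusted p = 0.00274). *Wnt5a* followed a similar order, with means of 7.79 in neurons and 7.09 in the mdDA domain, against 4.96 in the lateral domain. It was 2.14 higher in the mdDA than in the lateral domain (limma adjusted p = 0.0345), and neurons and mdDA domain differed by 0.70 (limma adjusted p = 0.121). With array medians subtracted, *Shh* (0.51) and *Wnt5a* (0.90) were both called higher in neurons than in the mdDA domain. *Wnt1* lay below the array medians in every group, averaging 3.54 in neurons and 3.84 in the mdDA domain, against 3.62 in the lateral domain, and was called in no comparison.

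The 3 Slit genes, which encode axon repellents of the midline, were called higher in the mdDA than in the lateral domain and fell in sorted neurons. *Slit2* was at 8.36 and 7.92 in E14.5 neurons, 8.05 and 7.97 in E13.5 neurons and 9.47 and 9.49 in the mdDA domain, against 5.88 and 5.84 in the lateral domain. *Slit2* was 3.62 higher in the mdDA than in the lateral domain (limma adjusted p = 0.0224), and neurons were 1.41 below the mdDA domain (limma adjusted p = 0.00500) but 2.22 above the lateral domain. *Slit1* fell by 0.95 (limma adjusted p = 0.0105) and *Slit3* by 1.53 (limma adjusted p = 0.00258) in neurons relative to the mdDA domain. The falls of *Slit1*, *Slit2* and *Slit3* against the mdDA domain were kept under every alternative tried. *Slit3* was also 0.39 lower in neurons than in the lateral domain (limma adjusted p = 0.0786), a call that did not hold in most settings. It was lost after either rescaling (-0.32 and -0.18), with a replicate block (limma adjusted p = 0.115), with trend and robust priors (limma adjusted p = 0.125), at a false discovery rate below 5%, and on leaving out any of 5 single arrays. The 3 genes kept unequal shares of the tissue difference, 61.1% for *Slit2*, 50.6% for *Slit1* and -33.8% for *Slit3*.

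A further 3 genes of the list fell in neurons. *Rspo2*, whose protein is secreted and amplifies WNT signals, was 0.86 lower than in the mdDA domain (limma adjusted p = 0.0187), *Sulf1*, a heparan sulfate sulfatase, was 1.01 lower (limma adjusted p = 0.0184), and *Msx2*, the relative of *Msx1*, was 1.00 lower (limma adjusted p = 0.0296). *Rspo2* and *Sulf1* were called higher in the mdDA than in the lateral domain, at differences of 1.23 and 2.29, while *Msx2* was not, at 0.77 (limma adjusted p = 0.138). The fall of *Rspo2* was lost without the first mdDA array (-0.73), and those of *Sulf1* (-0.91) and *Msx2* (-0.80) without the second. The transcription factor gene *Lmx1b*, which acts in mdDA progenitors and neurons, was 0.61 higher in neurons than in the mdDA domain (limma adjusted p = 0.0320) and 1.53 higher in the mdDA than in the lateral domain (limma adjusted p = 0.0507). The difference of *Lmx1b* between neurons and mdDA domain was 0.41 and not called after repeated quantile normalisation, and the call was also lost without either mdDA array (0.62 and 0.61). *Aldh1a1*, the retinaldehyde dehydrogenase found in part of the mdDA neurons, differed from the rest of the list. It was at 9.31 and 9.38 in E14.5 neurons, 7.98 and 7.78 in E13.5 neurons and 4.41 and 3.66 in the mdDA domain, against 4.07 and 4.39 in the lateral domain. *Aldh1a1* was 4.58 higher in neurons than in the mdDA domain (limma adjusted p = 7.49e-04), while the difference between stages, 1.47 (95% interval 1.07 to 1.87), did not pass over all probe sets (limma adjusted p = 0.667).

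Of 5 measured family members of the 7 genes, *Msx2* was the one called, with levels of 3.36 and 3.48 in E14.5 neurons and 3.42 and 3.79 in E13.5 neurons, against 4.31 and 4.71 in the mdDA domain, and the fall given above. The other 4 were not called. The means of *Foxa3*, the third *Foxa* gene, lay between 3.59 and 3.67, those of *Msx3* between 4.99 and 5.11, those of *Spon2* between 4.00 and 4.31, and those of *Ptf1a*, another basic helix-loop-helix gene, between 3.14 and 3.58 over the 4 groups. This held in all 4 comparisons with limma, but *Ptf1a* was called higher in neurons than in the lateral domain after quantile normalisation (0.50) and after subtraction of array medians (0.54). The measured genomic neighbours other than *Foxa1* and *Ttc6* were not called either. *Twist1*, beside *Ferd3l*, averaged 3.93 to 4.10, *Atp10d*, beside *Corin*, averaged 3.91 to 4.21, and *Gm5600*, beside *Spon1*, averaged 3.13 to 3.24.

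Markers of other cell types moved between the same groups. These lists, too, were drawn up with results of these data known. Of all probe sets, 9.84% were called lower in neurons than in the mdDA domain. The 9 genes of neural progenitors averaged 5.86 to 6.27 on the neuronal arrays and 7.16 to 7.20 in the mdDA domain, against 7.91 to 7.92 in the lateral domain, and 8 of the 9 fell in neurons relative to the mdDA domain. The 7 measured of 8 cell division genes averaged 4.21 to 4.34 in neurons and 5.39 to 5.53 in the mdDA domain, against 6.93 to 7.0 in the lateral domain, and 6 of them fell. The means of both lists were highest in the lateral domain, and the levels of *Ttc6*, *Corin*, *Msx1* and *Spon1* were highest in the mdDA domain. Both list means and these genes were lower in neurons than in the mdDA domain. All 3 erythroid genes fell in neurons, the globins *Hbb-y* by 6.84 and *Hba-x* by 5.72 and the heme synthesis gene *Alas2* by 0.80, so that the gap in the list mean rests on the globins, and 0 of the 3 were called between the 2 tissues. Of 5 endothelial genes 3 fell in neurons, with list means of 4.00 to 4.10 against 4.63 to 4.8 in the mdDA domain, and of 4 microglial genes 0 were called, at 4.03 to 4.30 in neurons against 4.31 to 4.41 in the mdDA domain. The part of these cell types in the levels of the 7 genes was not tested.

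**Figure D4:**
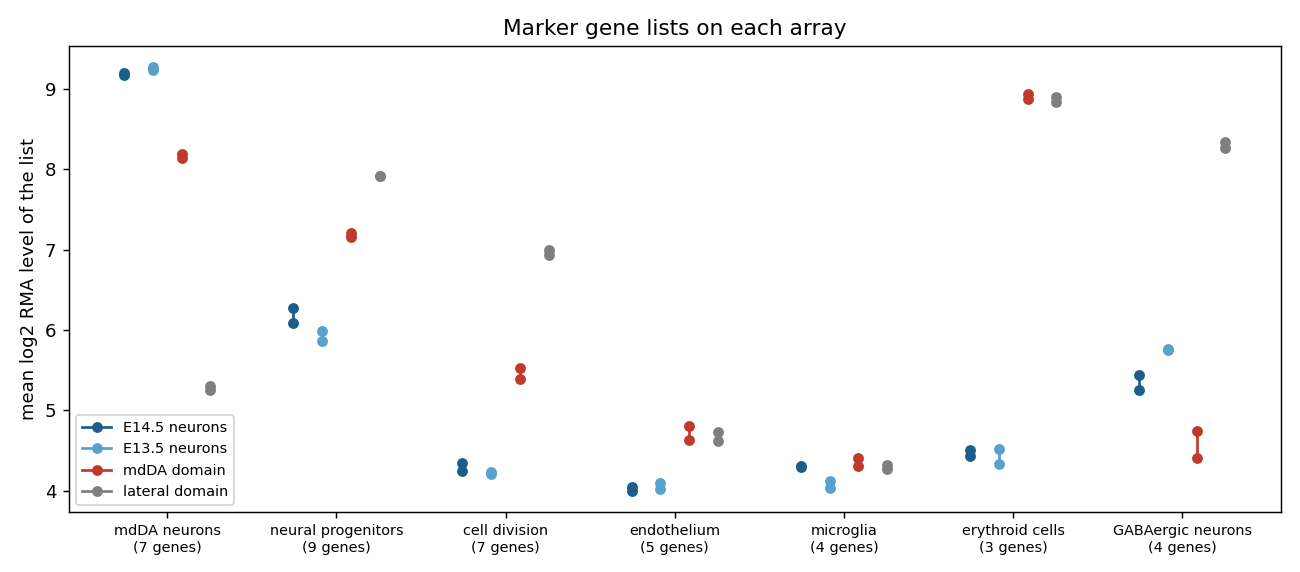
Mean log2 RMA level of 7 marker gene lists (vertical axis) on each array, 1 point per array, with the number of measured genes under each list. Progenitor and cell division lists are lowest in neurons and highest in the lateral domain, and the erythroid list lies between 4.33 and 4.52 in neurons and above 8.8 in both tissues.

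Across the 8 arrays the genes paired by level. *Foxa1* and *Foxa2* had a Pearson r of 0.98, *Foxa2* and *Ttc6* of 0.954, *Msx1* and *Spon1* of 0.948, and *Corin* and *Spon1* of 0.924, whereas *Foxa1* and *Corin* had an r of 0.121. These values describe 8 arrays that fall into 4 groups and are given without a test. Out of 2381 single-symbol genes whose group means spanned at least 1 on the log2 scale, the 5 closest to *Foxa1* were *Serpini1*, *Negr1*, *Slc10a4*, *Tmod2* and *Cacna1b* (r of at least 0.996), and the 5 closest to *Foxa2* were *Foxp2*, *Ina*, *C130021I20Rik*, *Nr4a2* and *En1* (at least 0.99). *Nr4a2* and *En1* encode transcription factors of mdDA neurons. The closest to *Ttc6* were *Cdk14*, *AI593442*, *Csmd3*, *Shc2* and *Pclo* (at least 0.978). The closest to *Corin* were *Pmfbp1*, *Pcdh11x*, *Pcdh9*, *Cartpt* and *Sema3c* (at least 0.979), and those closest to *Msx1* were *Lhx4*, *Nefm*, *Lrp1b*, *Ntrk3* and *Apcdd1* (at least 0.959). *Spon1* was closest to *Qrfprl*, *Nkx6-1*, *Plxdc2*, *Nefm* and *Hpgds* (at least 0.952), and *Ferd3l* to *Unc5a*, *Ankrd12*, *Zhx2*, *Camk1g* and *Jph3* (at least 0.965). By Spearman correlation 0 of the 5 genes recurred for *Foxa1* and *Foxa2*, and 1 of the 5 recurred for each of the other genes. Spearman values over 8 arrays are often tied, and ties were cut in alphabetical order. All 5 genes taken for *Foxa1* had a value of 1.000 and all 5 for *Msx1* had 0.976. These counts therefore cannot show how far the choice depended on the measure.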

How the data were processed

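RNA of 8 samples in 4 groups was measured on Affymetrix Mouse Gene arrays. The deposited values were gene-level log2 intensities made by the authors with RMA and sketch-quantile normalisation in Expression Console 1.2; no file of the scanner was used. Groups were taken from the sample labels. The platform table gave 21789 of 35556 probe sets a single gene symbol, 1621 several and 12146 none, and 21698 of the single symbols were matched to RefSeq (GRCm38.p6) by gene identifier. Where a gene had several probe sets, the brightest on average was kept.

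Differences were fitted with limma 3.58.1 (lmFit and eBayes) in R 4.3.3 on the log2 values of all probe sets without a filter, and p-values were adjusted over all of them by Benjamini-Hochberg, with calls at a false discovery rate below 10%. The mdDA and lateral domains were compared with the replicate number as a block. The study names a paired limma test but does not specify its pairs, so the fit here need not be the same. *Ferd3l*, *Pitx3* and *Shh*, which the study reports as enriched in the mdDA domain, were not called in this fit. The missing calls therefore do not show that these genes were level between the tissues. Over probe sets with a single symbol, this fit called 7 members in place of 6 and 10 other floor plate genes in place of 8. Neurons (mean of both stages) were compared with each tissue in a fit of 4 group means over 8 arrays, so these contrasts share arrays, and the stages were compared over the 4 neuronal arrays. Tables, motif searches and plots were made with matplotlib 3.10.9, pandas 2.3.3 and numpy 2.4.6 under Python 3.11.15. The code was tested on simulated data. The members, lists and tests were chosen with earlier results of these data known. The genes named were the 7 members, all measured genes of the floor plate and family lists, measured genomic neighbours, the 5 genes most like each member, and up to 4 genes of the marker lists. The small number of arrays limits the precision. Alternatives were another scaling, filter, prior, block, threshold and set of arrays.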

Additional observations from a re-analysis of the deposited data

Results flagged for a closer look

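*Foxa2* drew attention because its 2 neuronal stages lay on opposite sides of the mdDA domain. Both E14.5 arrays (8.27 and 8.28) were below both mdDA arrays (8.53 and 8.40), at a mean difference of -0.19, and both E13.5 arrays (8.57 and 8.54) were above them, at a mean difference of 0.09. The difference between the stages was tested directly and did not pass, at -0.28 with a limma adjusted p of 0.848 over all probe sets. The 2 arrays of a group are technical replicates, and both differences share the mdDA arrays. The E13.5 array at 8.54 and the mdDA array at 8.53 were almost level, while arrays of a group differed by a median of 0.165 to 0.201 over all probe sets. The side also depended on scaling. The mean of both stages differed from the mdDA domain by -0.27 after repeated quantile normalisation and by 0.15 with array medians subtracted.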

How the results depend on the processing

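Of the values of the 7 genes recomputed under alternatives, 331 kept their direction and side of the threshold, 30 lost a call, 4 gained one and 13 uncalled values changed sign; 0 called values reversed. Between mdDA and lateral domain 541 probe sets were higher and 390 lower. These counts became 829 and 605 with no replicate block, 937 and 709 with trend and robust priors, 1342 and 1160 over probe sets with 1 symbol, and 130 and 97 at a false discovery rate below 5%, and 863 were higher with dim probe sets left out. Leaving out 1 array gave 4 to 96 higher and 11 to 74 lower. Between neurons and mdDA domain (3032 higher, 3500 lower) subtraction of array medians gave 5580 and 1782, so that 75.8% of calls were higher in place of 46.4%, as the median of all probe sets moved from -0.0775 to 0.119. A false discovery rate below 5% gave 1970 and 1965, 1-symbol probe sets gave 2190 lower, and leaving out 1 array gave 949 to 3193 higher and 1088 to 3312 lower. Between neurons and lateral domain (4057 and 5141) subtraction of medians gave 6705 and 2732 (71.1% higher in place of 44.1%), 1-symbol probe sets gave 3378 lower, and leaving out 1 array gave 2243 to 4247 higher and 2423 to 4915 lower. Between stages all 8 arrays in the fit gave 9 and 11 in place of 0 and 0, and leaving out 1 array gave 0. The cause was not tested, beyond fewer probe sets or arrays in those settings; an array left alone in its group was assumed to vary like the others. Arrays of equal replicate number did not deviate together (correlations of -0.0147 for the tissues and 0.013 for the neurons), so the numbers are shared in name only; with a replicate block the neurons gave 2684 higher and 2941 lower against the mdDA domain, 3830 and 4643 against the lateral domain, and 0 between stages.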

Other observations

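The markers of GABAergic neurons, which were listed to describe the lateral domain, included genes that were higher in sorted neurons than in the mdDA domain. *Gad2*, which encodes a GABA-synthesising enzyme, averaged 7.83 in neurons and 5.30 in the mdDA domain, against 8.34 in the lateral domain, and was 2.53 higher in neurons than in the mdDA domain (limma adjusted p = 9.88e-04). *Gata3*, a transcription factor gene of GABAergic neurons, averaged 5.59 in neurons and 4.72 in the mdDA domain, against 8.69 in the lateral domain, and was 0.88 higher in neurons than in the mdDA domain (limma adjusted p = 0.0168). That mean hides unequal stages: *Gata3* was 0.32 above the mdDA domain in E14.5 neurons (mean 5.04) and 1.44 above it in E13.5 neurons (mean 6.15), and the difference between stages, -1.12 (95% interval -1.52 to -0.72), did not pass over all probe sets (limma adjusted p = 0.695). *Tal2*, another such factor, averaged 3.81 in neurons and 3.99 in the mdDA domain, against 8.96 in the lateral domain, and *Gad1* was 0.67 higher in neurons than in the mdDA domain (limma adjusted p = 0.0921). Of the 4 listed genes 3 were called higher in neurons than in the mdDA domain, against 8.53% of all probe sets. All 4 were called lower in the mdDA than in the lateral domain, against 1.1% of all probe sets. The source of these transcripts was not tested.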
